A study of Mus musculus with 4 samples.

Results

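The genes described here are 8 genes whose proteins hold apoptosis in check, 4 anti-apoptotic BCL2 genes (Bcl2, Bcl2l1, Bcl2l2 and Mcl1) and 4 inhibitor of apoptosis (IAP) genes (Birc2, Birc3, Birc5 and Xiap). They were chosen by name: every array spot that is not a control and carries one of these gene names was taken, which gave 13 probes of 39429 and 8 gene names of 31829. All 8 genes had a probe well above background, as the scanner program flags it, on all 4 arrays. The study asked which genes respond to the DNA-damaging drug doxorubicin, an anthracycline that traps topoisomerase II on DNA, only when the tumor suppressor p53 is present. It used mouse embryonic fibroblasts (MEFs) and hybridized RNA of each condition to a one-color Agilent mouse array carrying probes of 60 bases.

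The 4 conditions were wild-type (WT) MEFs without an agent, WT MEFs given doxorubicin, p53-/- MEFs without an agent and p53-/- MEFs given doxorubicin. How the p53-/- embryos were made, the dose and time behind the arrays, the number of embryos and the passage are not given in the sources used here. There was 1 array per condition, so no ratio has a replicate or a p-value and precision is limited by how few arrays there were. Place on the slide, culture and condition cannot be told apart.

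Anti-apoptotic BCL2 proteins bind the effectors BAX and BAK and the BH3-only proteins that activate them, and so keep the outer mitochondrial membrane closed. IAP proteins act further down: XIAP blocks caspases directly, while the cIAP proteins made from Birc2 and Birc3 are ubiquitin ligases of the tumor necrosis factor (TNF) receptor complex that favor NF-kB signaling over cell death. Survivin, made from Birc5, belongs to the IAP family by its BIR domain, but in dividing cells its main known task is in the chromosomal passenger complex, which guides chromosome segregation and cytokinesis.

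Positions of probes follow the mm9 build, as in the files. The probes of 4 genes that the results turn on are printed 5′ to 3′ in lower case, since each value below is the brightness of such a stretch and each could be read in at least 1 frame with no stop codon. They are the Bcl2 probe at chr1:108608970-108609029 (minus strand), the dimmer of the Bcl2l1 probes at chr2:152655185-152655244 (minus strand), the Birc3 probe at chr9:7854409-7854468 (minus strand) and the second of the Birc5 probes at chr11:117711112-117711171 (plus strand).
Bcl2: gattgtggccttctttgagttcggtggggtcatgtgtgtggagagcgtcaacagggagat
Bcl2l1: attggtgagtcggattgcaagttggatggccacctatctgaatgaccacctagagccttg
Birc3: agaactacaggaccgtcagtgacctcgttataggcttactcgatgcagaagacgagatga
Birc5: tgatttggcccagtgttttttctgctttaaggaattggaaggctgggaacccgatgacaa
No pair of member probes shared a run of more than 8 bases, the related genes Birc2 and Birc3 included. The exon or untranslated region under each probe was not analysed here.

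Signals are given as multiples of the array's own 75th percentile, called relative signals, and changes as log2 ratios of relative signals. For a gene with several probes, the probe with the brightest mean signal stands for the gene and the others follow beside it. Across 244 probes spotted 10 times per array, the SD of a spot was 0.076 on the log2 scale, which gives 0.11 for a ratio of 2 arrays and 0.15 for the difference between 2 such ratios. That spread covers the spot alone and none of the culture, extraction or labeling, and a ratio is called larger than it here only if it exceeds 2 SD.

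The labels were checked first. Trp53, the gene of p53, had signals of 1228 in untreated WT, 3442 in doxorubicin-treated WT, 442 in untreated p53-/- and 543 in doxorubicin-treated p53-/- MEFs. Whether its probe lies inside the deleted part was not analysed here, so the remaining p53-/- signal tells nothing of the deletion. The p53 target Mdm2 was 3.99-fold higher with doxorubicin in WT MEFs and 1.38-fold higher in p53-/- MEFs, and was 3.47-fold lower in p53-/- than in WT MEFs without drug. Cdkn1a, which encodes the cell cycle inhibitor p21 and is also a p53 target, was 26.6-fold lower in p53-/- MEFs without drug, but its fold with doxorubicin was 4.22 in WT and 4.70 in p53-/- MEFs, so its drug ratio did not set the genotypes apart. All 10 fibroblast markers were well above background on every array, with summed relative signals of 579 to 862. The defining markers Epcam (epithelium), Cdh5 (endothelium), Myod1 (skeletal muscle) and Gfap (glia) were on no array well above background. Of the leukocyte list, 6 to 8 of 9 markers were called, with summed relative signals of 15.2 to 23.3, highest in doxorubicin-treated WT MEFs. Of the epithelial list, 3 to 5 of 7 were called, with sums of 5.38 to 18.0, highest in doxorubicin-treated p53-/- MEFs. Of the neural list 4 of 5 on the array were called on every array (sums of 9.56 to 24.4), of the skeletal muscle list 3 to 4 of 6 (4.22 to 8.39) and of the endothelial list 2 to 4 of 6 (2.55 to 4.50). The part of these lists in the results was not tested.

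Across the 8 genes, the members past 2-fold with doxorubicin were the IAP genes Birc5 in WT and Birc3 in p53-/- MEFs, and both had ratios of opposite sign in the other genotype. The 4 BCL2 genes stayed within 2-fold by the probe that stands for each gene, but the second Bcl2l1 probe passed 2-fold in both genotypes, and the mean of the Bcl2l1 probes gave a log2 ratio of 1.35 in WT MEFs. In WT MEFs, 0 of the 8 genes were at least 2-fold higher with doxorubicin, where 11.0% of all 17546 genes measured were, and 1 (Birc5) was at least 2-fold lower, where 10.4% were. In p53-/- MEFs, 1 gene (Birc3) was at least 2-fold higher against 9.24% of 16981 genes, and 0 were lower against 6.89%. A count of 1 in 8 is near these shares. The median log2 ratio of the 4 BCL2 genes was 0.50 in WT and 0.20 in p53-/- MEFs, and that of the 4 IAP genes was −0.52 in WT and 0.70 in p53-/- MEFs, where the median of all genes was 0.01 and 0.00. Scaling to the array median instead lowered every ratio, so that the all-gene median became −0.27 for WT and −0.30 for p53-/- MEFs.

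**Figure D1:**
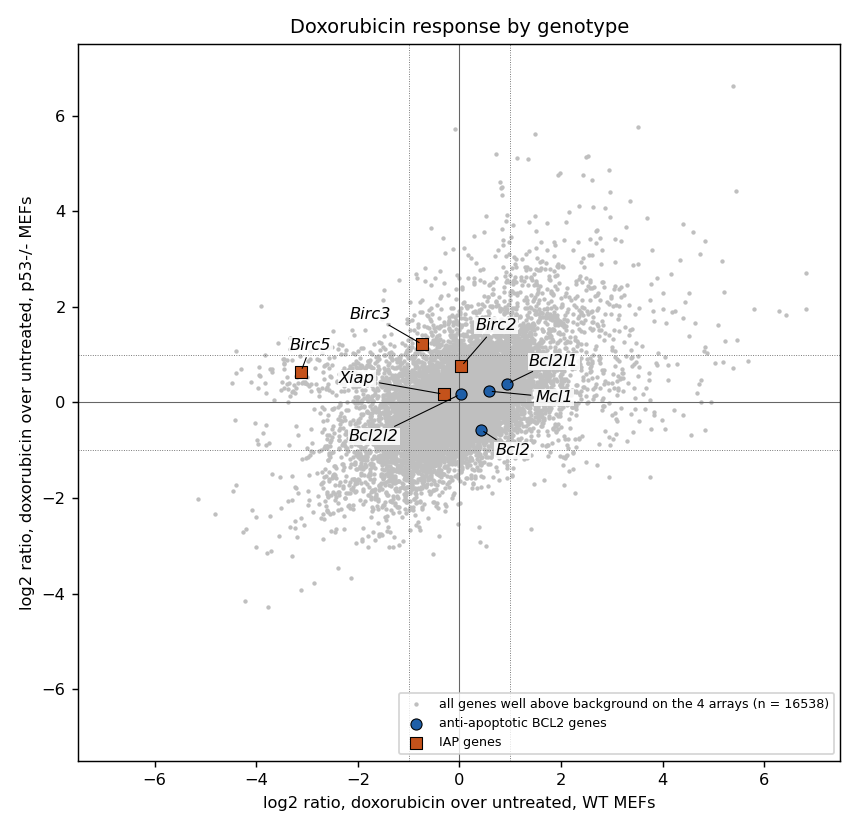
Each grey point is 1 of 16538 genes well above background on the 4 arrays, with its log2 doxorubicin ratio in WT MEFs on the x axis and in p53-/- MEFs on the y axis; dotted lines mark 2-fold. Birc5 (−3.12, 0.64) and Birc3 (−0.73, 1.21) lie to the upper left, below 0 in WT and above 0 in p53-/- MEFs, whereas the 4 BCL2 genes (circles), each plotted by its brightest probe, lie within 2-fold on both axes.

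Bcl2, the founding anti-apoptotic gene of the family, had doxorubicin ratios of opposite sign in the 2 genotypes. Its relative signals were 0.920 in untreated WT, 1.23 in doxorubicin-treated WT, 1.34 in untreated p53-/- and 0.905 in doxorubicin-treated p53-/- MEFs. The signal was thus high in untreated p53-/- and treated WT cells, which differed by 0.13 (log2) and so within the spot spread, and low in the other 2 conditions, which differed by 0.02. The log2 ratio with doxorubicin was 0.42 in WT and −0.57 in p53-/- MEFs. The difference between them was 0.99, a 1.98-fold gap at the edge of the 2-fold mark. It was just past 2-fold with median scaling (1.01), with the percentile taken over detected probes (1.02) and with quantile normalization. Without drug the log2 ratio of p53-/- over WT was 0.55, and with drug it was −0.44.

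Bcl2l1, which encodes BCL-XL, was the BCL2 gene with the highest doxorubicin ratio in both genotypes. The relative signals of its brighter probe (chr2:152606404-152606463, minus strand) were 14.8 in untreated WT, 28.4 in doxorubicin-treated WT, 9.90 in untreated p53-/- and 13.0 in doxorubicin-treated p53-/- MEFs. Treated WT cells stood highest and untreated p53-/- cells lowest, and the 2 conditions between them, untreated WT and treated p53-/-, differed by 0.19 (log2), within the spot spread. The fold with doxorubicin was 1.92 in WT and 1.31 in p53-/- MEFs, a difference of 0.55 on the log2 scale. With doxorubicin, Bcl2l1 was 2.19-fold lower in p53-/- than in WT MEFs. It was the only member at least 2-fold lower in that comparison, where 10.3% of 17922 genes were.

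The dimmer Bcl2l1 probe, printed above, gave larger folds. Its relative signals were 0.157, 0.530, 0.132 and 0.270 in the same order of conditions, a rise of 3.36-fold in WT and of 2.04-fold in p53-/- MEFs. Both probes were higher with doxorubicin in both genotypes, and both were lower in p53-/- than in WT MEFs with doxorubicin, by log2 ratios of −1.13 and −0.97. Their log2 ratios differed by 0.81 in WT and 0.64 in p53-/- MEFs, where the median range between probes of a gene was 0.23 over 3553 genes and 0.20 over 3416 genes. In untreated p53-/- MEFs the signal of the dimmer probe, 248, was under the brightest of 153 negative controls on that array, 250.1, so the p53-/- ratio of that probe rests on a value within reach of background.

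Mcl1, whose short-lived protein guards BAK, was likewise highest in treated WT and lowest in untreated p53-/- MEFs. The relative signals of its brighter probe (chr3:95466855-95466914, plus strand) were 14.5 in untreated WT, 21.6 in doxorubicin-treated WT, 13.5 in untreated p53-/- and 15.9 in doxorubicin-treated p53-/- MEFs. By this probe treated WT MEFs stood apart, and the other 3 conditions followed in steps of 0.13 and 0.11 (log2), within the spot spread. The log2 ratio with doxorubicin was 0.57 in WT, a 1.49-fold change, and 0.24 in p53-/- MEFs, where scaling to the array median turned it to −0.06. A second probe (chr3:95465543-95465602) gave 0.44 in WT and 0.41 in p53-/- MEFs, so the gap between genotypes was 0.34 by one probe and 0.03 by the other. By the second probe, treated WT and treated p53-/- MEFs differed by 0.15 (log2), within the spot spread.

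Bcl2l2, which encodes BCL-W, had small ratios by its brighter probe. The relative signals of that probe (chr14:55506840-55506899, plus strand) were 1.95 in untreated WT, 1.98 in doxorubicin-treated WT, 1.61 in untreated p53-/- and 1.81 in doxorubicin-treated p53-/- MEFs. No 2 neighbors in order of level differed beyond the spot spread, though the ends did, by 0.31 (log2). The log2 ratios with doxorubicin, 0.02 in WT and 0.17 in p53-/- MEFs, turned to −0.25 and −0.13 when arrays were scaled to their median, so they have no settled direction. A second, dim probe (chr14:55507008-55507067) had signals of 138, 102, 90.5 and 50.4, the last of which was not well above background. Its log2 ratio with doxorubicin was −0.25 in WT and −1.21 in p53-/- MEFs, and the latter rests on that last signal.

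With doxorubicin, all 4 BCL2 genes had lower relative signals in p53-/- than in WT MEFs, with log2 ratios of −0.13 (Bcl2l2) to −1.13 (Bcl2l1) and a median of −0.44. No sign among them turned under the other scalings. The −0.13 of Bcl2l2 is within the spot spread. The median of all genes in this comparison was 0.00, and a shared sign among 4 genes was not tested. Without drug, 3 of the 4 were lower in p53-/- MEFs, with Bcl2 the exception, and 0 of the 8 members passed 2-fold in either direction. Of all 17317 genes in that comparison 2.15% were at least 2-fold higher and 2.62% at least 2-fold lower.

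**Figure D2:**
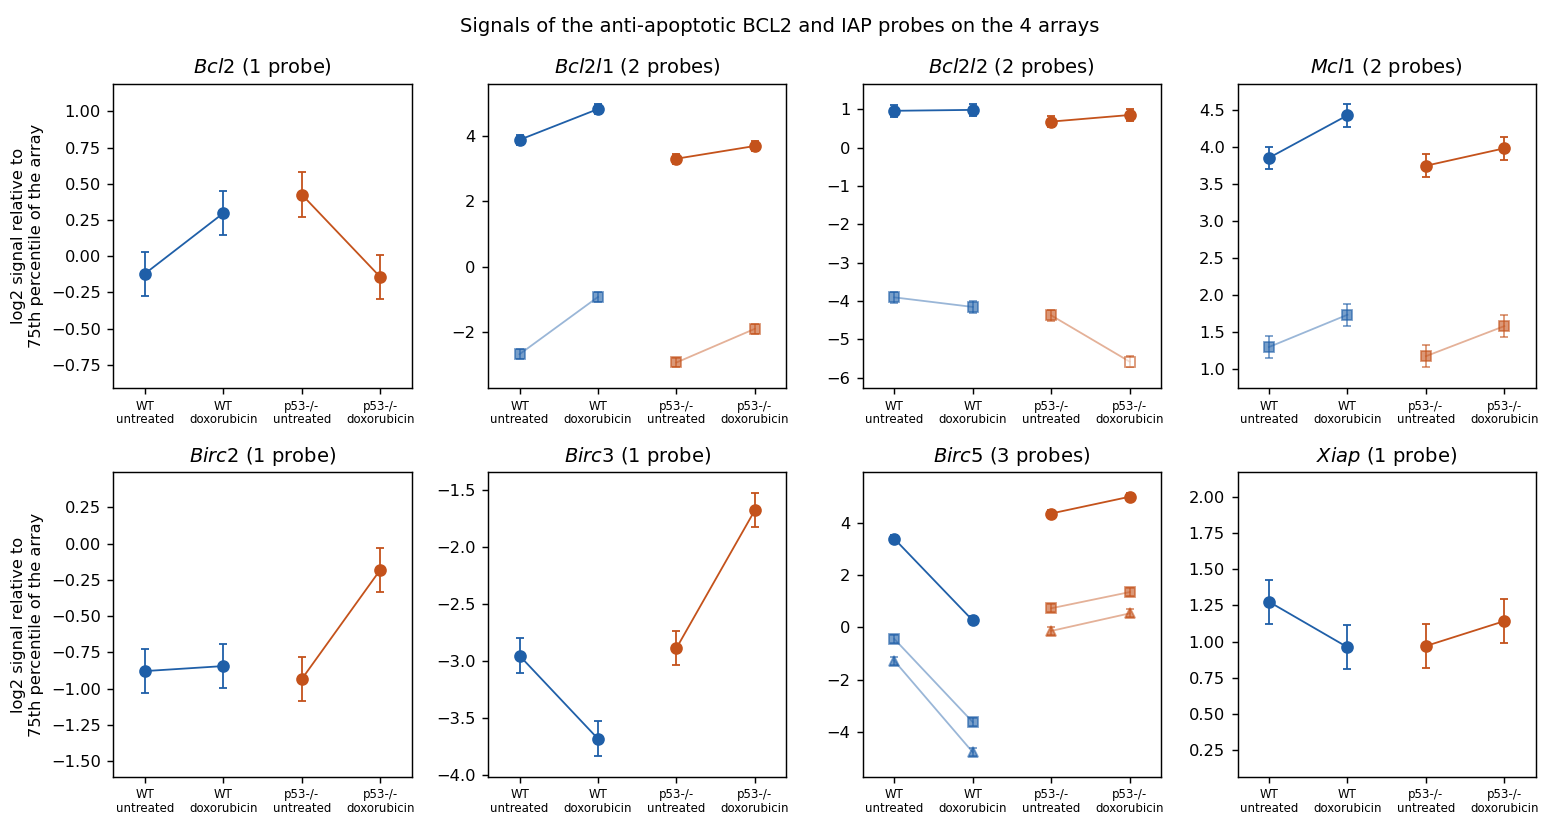
Log2 relative signal (y axis, a separate scale per gene) of each probe on the 4 arrays, WT in blue and p53-/- in orange; solid circles are the probe standing for the gene, paler squares and triangles are its other probes, bars are 2 SD of repeat spots and an open symbol was not well above background. The Birc5 lines slope down in WT and up in p53-/- MEFs for all 3 probes. Birc3 shows the same slopes at lower signal, and the Bcl2 slopes run the other way.

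Birc2, which encodes cIAP1, was higher with doxorubicin in p53-/- MEFs. Its relative signals (chr9:7818688-7818747, minus strand) were 0.544 in untreated WT, 0.557 in doxorubicin-treated WT, 0.523 in untreated p53-/- and 0.882 in doxorubicin-treated p53-/- MEFs. The treated p53-/- array stood apart, and the other 3 lay within the spot spread of their neighbors in order. The fold with doxorubicin was 1.69 in p53-/- MEFs. In WT MEFs the log2 ratio was 0.03, which scaling to the array median turned to −0.24.

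Birc3, which encodes cIAP2 and is a known NF-kB target, was below its untreated level in treated WT MEFs and above it in treated p53-/- MEFs. Its relative signals were 0.129 in untreated WT, 0.0778 in doxorubicin-treated WT, 0.135 in untreated p53-/- and 0.314 in doxorubicin-treated p53-/- MEFs. The untreated arrays differed by 0.07 (log2), within the spot spread, and the treated arrays lay on either side of them. Doxorubicin-treated WT MEFs were 1.66-fold below untreated WT MEFs, and treated p53-/- MEFs were 2.32-fold above untreated p53-/- MEFs. The log2 ratios, −0.73 and 1.21, differed by −1.94, and with doxorubicin Birc3 was 4.03-fold higher in p53-/- than in WT MEFs.

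Birc3 was a dim probe, with signals of 268, 142, 254 and 759. The value in untreated p53-/- MEFs was just above that array's brightest negative control, 250.1, and the 2-fold call in p53-/- MEFs rests on it. Scaling to the array median brought the p53-/- log2 ratio to 0.92, under 2-fold. A further probe that only the description ties to Birc3 (chr9:7856162-7856221, named after its values were seen) had signals of 178, 85.4, 182 and 340. Its log2 ratio was −0.87 in WT and 0.54 in p53-/- MEFs, so the directions were the same and the p53-/- ratio was smaller. The 182 in untreated p53-/- MEFs was under that array's brightest negative control, and the 85.4 in treated WT MEFs was just above that array's, 77.5. Both ratios of this probe thus rest on values within reach of background.

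Birc2 and Birc3 lie next to each other on chromosome 9, between Tmem123 and Yap1 in the RefSeq gene order. For Tmem123 the doxorubicin log2 ratio was −0.97 in WT and −0.34 in p53-/- MEFs, and Yap1 had −0.52 and −0.36. Both flanking genes were thus below 0 in p53-/- MEFs, where the 2 cIAP genes were above 0.

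Xiap, whose protein binds and inhibits caspases, had small ratios as well. Its relative signals (chrX:39462720-39462779, plus strand) were 2.42 in untreated WT, 1.95 in doxorubicin-treated WT, 1.96 in untreated p53-/- and 2.21 in doxorubicin-treated p53-/- MEFs. No 2 neighbors in order differed beyond the spot spread, though the ends did. The log2 ratio with doxorubicin was −0.31 in WT and 0.17 in p53-/- MEFs, and scaling to the array median turned the latter to −0.13.

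Birc5 had the largest change of the 8 genes in WT MEFs and the largest gap between genotypes. The relative signals of its brightest probe (chr11:117716978-117717037, plus strand) were 10.4 in untreated WT, 1.20 in doxorubicin-treated WT, 20.3 in untreated p53-/- and 31.7 in doxorubicin-treated p53-/- MEFs. The 4 levels were all apart from each other beyond the spot spread, with treated WT far below the rest. Doxorubicin-treated WT MEFs were 8.69-fold below untreated WT MEFs, and 87 of the 17546 genes measured had a lower ratio. In p53-/- MEFs the fold with doxorubicin was 1.56 upward. In RNA of a whole culture, fewer cells that express a gene and less RNA per cell cannot be told apart.

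The log2 doxorubicin ratios of Birc5, −3.12 in WT and 0.64 in p53-/- MEFs, differed by −3.76. Without drug Birc5 was 1.95-fold higher in p53-/- MEFs, and with drug it was 26.4-fold higher, a ratio that 47 of 17922 genes exceeded. The other 2 probes had the same order of levels. The second probe, printed above, had signals of 1525, 148, 3109 and 6144, and the third (chr11:117714057-117714116) had 856, 66.7, 1707 and 3499. Over the 3 probes the log2 ratio was −3.12 to −3.49 in WT and 0.62 to 0.67 in p53-/- MEFs. The 66.7 of the third probe in treated WT MEFs was below the brightest negative control of that array, 77.5. Without drug these 2 probes were 2.25-fold and 2.20-fold higher in p53-/- MEFs.

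**Figure D3:**
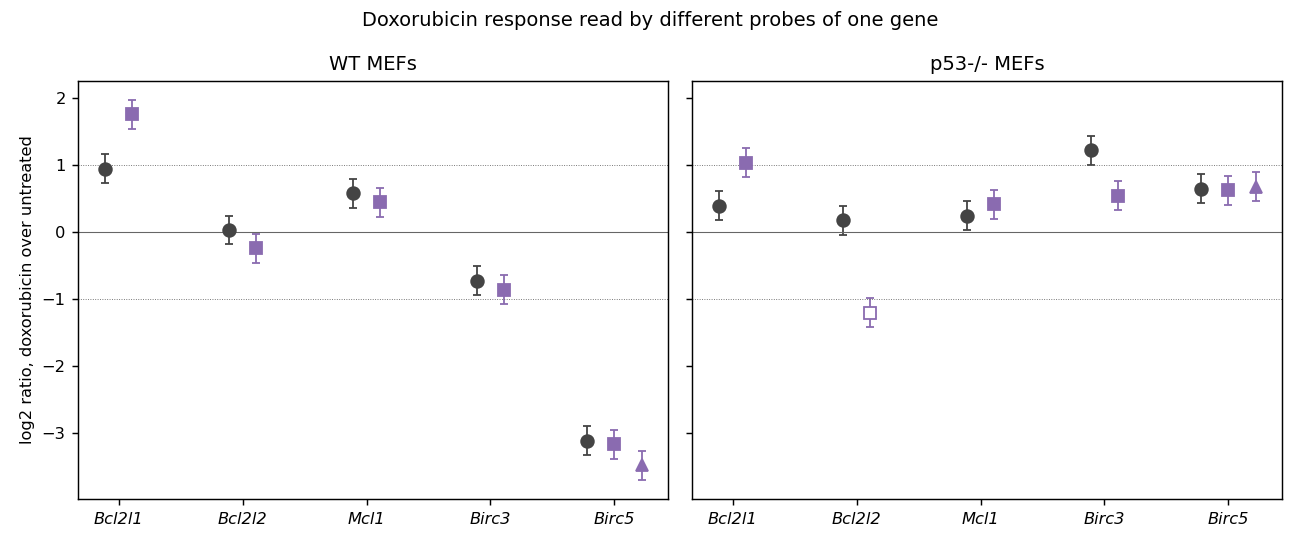
Log2 doxorubicin ratio (y axis) in WT (left) and p53-/- MEFs (right) for every probe of the genes with more than 1 probe; the dark circle is the probe standing for the gene, bars are 2 SD of a ratio of repeat spots, and for Birc3 the second point is the probe matched by description. The Birc5 probes lie together (−3.12 to −3.49 and 0.62 to 0.67), the Bcl2l1 probes are 0.81 and 0.64 apart, and the open Bcl2l2 square includes an array where it was not well above background.

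With doxorubicin, the 4 IAP members were all higher in p53-/- than in WT MEFs. Their log2 ratios were 0.18 (Xiap, within the spot spread), 0.66 (Birc2), 2.01 (Birc3) and 4.72 (Birc5). The median of all genes was 0.00, and a shared sign among 4 genes was not tested. The direction did not hold for the IAP genes outside the members that were measured on both arrays, Birc6 (−0.65) and Naip5 (−0.28). Naip5 signals were 76160 to 83322 on the 4 arrays, whereas Naip1 and Naip6 were well above background on none. Naip2 was called only in treated p53-/- MEFs, at least 1.78-fold higher there than in treated WT MEFs. Birc7 was called only in treated WT MEFs and was at least 1.27-fold lower in treated p53-/- MEFs. The other BCL2 gene measured, Bcl2a1d, had −0.12, within the spot spread. Birc3 and Birc5 passed 2-fold, which is 2 of 8 members, where 11.9% of all genes did. The doxorubicin ratios of the genotypes differed by at least 2-fold for the same 2 members, both lower in WT, where 9.86% of 16538 genes were. None of the 8 was at least 2-fold higher in WT, where 8.38% were, but Bcl2 lay at that edge and passed it under 3 other scalings. These comparisons share arrays and are not independent of each other.

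Genes with the most similar profiles were found by Euclidean distance between centered log2 signals over the 4 arrays, among 16537 genes. They are printed for Birc5, Birc3, Bcl2l1 and Bcl2, which are a part of the members. For Birc5 they were Hells, a chromatin remodeler of dividing cells (0.16), and Ect2, which acts at cytokinesis (0.18), and only 43 genes lay within a distance of 0.5. For Birc3 they were Zfp820 (0.13) and the interferon-induced gene Ifit2 (0.16), with 131 genes within 0.5. For Bcl2l1 they were Neu3 (0.081) and Mcfd2 (0.10), with 500 genes within 0.5, and for Bcl2 Rltpr (0.048) with 2199. Bcl2l2 had 4806 genes within 0.5. Among the members, Bcl2l2 and Xiap were the closest pair (0.28) and Bcl2l1 and Birc5 the farthest (4.68).

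The promoter windows of the members (RefSeq, GRCm38.p6, 250 bases before to 50 after a transcript start, 13 windows for the 8 genes) were searched on both strands. The motifs were the cell cycle homology element TTTGAA, E2F sites TTTGGCGC and TTTCCCGC, the CCAAT box, the interferon-stimulated element, the NF-kB site and the p53 half-site. These are found in 17.9%, 0.514%, 1.07%, 37.4%, 3.44%, 4.51% and 8.36% of 32851 windows of that length. Stretches around a part of the matches, in Bcl2, Bcl2l1, Birc2 and Birc5, are printed with the match in capitals. They lie at chr1:106714395-106714420 (minus strand) for Bcl2, chr2:152830940-152830967 (minus strand) for Bcl2l1, chr9:7836777-7836806 (minus strand) for Birc2, and chr11:117848999-117849028 and chr11:117849183-117849212 (plus strand) for Birc5.
Bcl2, TTTGAA: tcttctttttTTTGAAtgaacggtga
Bcl2l1, NF-kB site: tgtttgtgGGGGGTCTCCagcatacgcc
Birc2, p53 half-site: cagtcaacccAGGCTAGTCTcgaatttgcg
Birc5, p53 half-site: gacttgcagcGGACATGCTTtaaagaggtg
Birc5, NF-kB site: ggcgtggggcGGGACTTTCCcggctcgcct
The window of Birc5 held a second NF-kB match, 20 bases after the start, and its first lay at −44. The Birc5 window held no TTTGAA, E2F site, CCAAT box or interferon-stimulated element. No member window held an E2F site or an interferon-stimulated element, and the Birc3 window held none of the motifs. TTTGAA in Mcl1 and Xiap and the CCAAT box in Birc2 were matched as well but are not printed. A match is a description of letters and not of binding, and a window without one says only that the letters are not in it.

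The partners these proteins act on were read from lists of pathway genes. The counts past 2-fold in these lists stand beside 11.0% higher and 10.4% lower of all genes in WT, and 9.24% and 6.89% in p53-/- MEFs. Among the BAX-type effectors, Bax, a known p53 target, had a doxorubicin log2 ratio of 1.10 in WT and −0.33 in p53-/- MEFs, and Bok had −1.76 and −1.39. Of 8 BH3-only genes, whose products the BCL2 proteins bind, 6 were measured. Pmaip1 (NOXA, a partner of MCL1) had 2.60 in WT and 1.68 in p53-/- MEFs. Bcl2l11 (BIM) had 1.52 and 3.23, so 2 of 6 were at least 2-fold higher in each genotype. The untreated Bcl2l11 signals, 105 in WT and 129 in p53-/- MEFs, were under the brightest negative controls of those arrays, 108.3 and 250.1. Both Bcl2l11 ratios, and its place in these counts, therefore rest on values within reach of background. Bmf was the one at least 2-fold lower in WT, at −2.28, and had −0.54 in p53-/- MEFs.

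Of the 4 IAP antagonists, Xaf1, whose product binds XIAP, was at least 2-fold higher in both genotypes, at 2.96 in WT and 4.39 in p53-/- MEFs. Its signal in untreated p53-/- MEFs, 204, was under that array's brightest negative control, 250.1, so the 4.39 rests on a value within reach of background. Sept4 was at least 2-fold lower in both genotypes, at −2.76 and −2.12. Diablo (SMAC) had −0.17 and 0.76. Of 8 caspase and apoptosome genes, 1 was at least 2-fold lower in p53-/- MEFs (Apaf1, the scaffold of the apoptosome, −1.26).

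The TNF receptor complex, in which the cIAP proteins work, had 2 of 9 genes at least 2-fold higher in WT and 4 of 9 in p53-/- MEFs, with none at least 2-fold lower in either, where 11.0% and 9.24% of all genes were higher. The median log2 ratio was −0.10 in WT and 0.70 in p53-/- MEFs, beside 0.01 and 0.00 for all genes. Traf1, which recruits cIAP proteins and is a known NF-kB target like Birc3, had −0.85 in WT and 2.69 in p53-/- MEFs. Its signals of 200 in untreated WT, 96.9 in treated WT and 267 in untreated p53-/- MEFs were dim, the last just above that array's brightest negative control (250.1), so both ratios rest on values within reach of background. Tnfaip3 (A20), another NF-kB target, had 2.70 and 3.58, above 0 in both genotypes.

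The mitotic partners of survivin had ratios of the same sign as Birc5 in each genotype, except that scaling to the array median, which takes 0.30 off a p53-/- ratio, brings Rcc2 below 0 there. Incenp and Cdca8 (borealin) encode subunits of the chromosomal passenger complex, whereas the shugoshin gene Sgol1 encodes a guardian of centromeric cohesion that helps to place the complex and is no subunit of it. Of 5 genes 4 were measured, the Aurkb probe being well above background on no array. In WT MEFs, 3 of the 4 were at least 2-fold lower, Sgol1 (−3.47), Cdca8 (−2.41) and Incenp (−2.05), and Rcc2 had −0.96. In p53-/- MEFs they had 0.92, 0.43, 0.50 and 0.25. Compared under doxorubicin, p53-/- cells were at least 2-fold above WT cells for all 4, where 11.9% of all genes were, and the median of these log2 ratios was 3.68.

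Of 7 genes that control the stability of the MCL1 protein, Fbxw7, part of a ubiquitin ligase for MCL1, had 1.55 in WT and −0.59 in p53-/- MEFs. Huwe1, a further MCL1 ligase, had −0.93 and −1.48, and Usp9x, which removes ubiquitin from MCL1, had −0.32 and −1.15. Ube2c and Cdc20, which serve the anaphase-promoting complex, had −3.40 and −1.19 in WT cells. Their p53-/- values were 0.38 and 0.87. Of the other anti-apoptotic genes of the 2 families, 3 of 8 on the array were measured, and Birc6, a giant IAP, had −0.94 in WT and −1.54 in p53-/- MEFs.

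**Figure D4:**
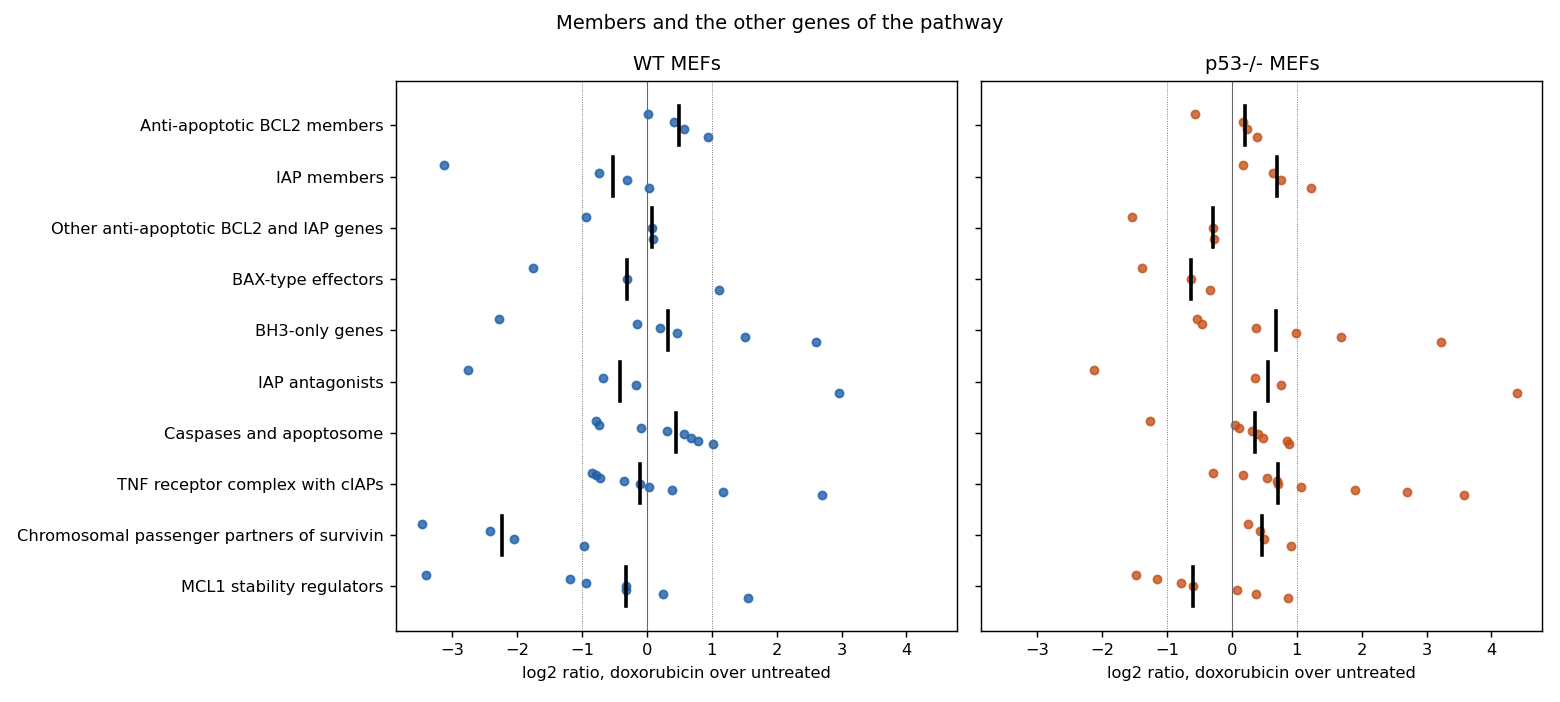
Log2 doxorubicin ratio (x axis) in WT (left) and p53-/- MEFs (right) of the members and of the other pathway lists (rows); each point is a gene well above background on both arrays, the black bar is the list's median and dotted lines mark 2-fold. The mitotic partners of survivin (the row of chromosomal passenger partners) have a median of −2.23 in WT and 0.47 in p53-/- MEFs, and the TNF receptor complex −0.10 and 0.70.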

How the data were processed

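RNA of 4 MEF cultures was measured on 4 one-color arrays of 1 slide. For each, 200 ng was labeled with Cy3 by the authors, and Agilent Feature Extraction (10.7.3.1) read the arrays and subtracted background from the intensity that was deposited. Arrays were not scaled to each other, and the deposited table of all arrays held the same intensity at each spot. Deposited 0 or 1 flags mark other properties of a spot: well above background, saturated (0 spots) and outlier (left out). Fold changes the authors made in the Subio Platform were not used.

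Repeat spots were averaged on the log2 intensity scale, and each array's 75th percentile was subtracted (signals of 1819 to 2421). Signals well above background began at 44.3 to 87.1. The brightest probe stands for a gene. A gene was counted as changed at 2-fold when well above background on both arrays, with no test. Named genes are the members, 3 label checks, the 2 highest and 2 lowest ratios of each other list per doxorubicin comparison (a part of them is printed), and the 2 nearest profiles of each member. Genes named by place on the chromosome were added. The members and lists were chosen with earlier results of these data known.

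Alternatives were other scalings, background correction with normexp (limma 3.58.1, R 4.3.3), filters, the mean of probes, outlier spots kept, the deposited table, and thresholds of 1.5-fold and 3-fold. Scripts ran in Python 3.11.15 with numpy 2.4.6 and pandas 2.3.3 and were tested on simulated data.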

Additional observations from a re-analysis of the deposited data

Results flagged for a closer look

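Among the members and the pathway lists, 8 genes went at least 1.5-fold down with doxorubicin in one genotype and at least 1.5-fold up in the other. The share of all genes that meet this rule is not given here, so the count of 8 cannot be read as high or low. With 1 array per condition, none of these differences was tested. The differences (WT minus p53-/- log2 ratio) were −1.94 for Birc3, −3.76 for Birc5, −1.64 for Casp2, −2.05 for Cdc20, 2.14 for Fbxw7, −4.39 for Sgol1, −3.54 for Traf1 and −1.48 for Traf2. Fbxw7 was the one of these genes that was higher in WT MEFs. Casp2, an initiator caspase, had −0.79 in WT and 0.84 in p53-/- MEFs, and Traf2, the adaptor that holds cIAP proteins at TNF receptors, had −0.79 and 0.69.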

How the results depend on the processing

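The 40 log2 ratios and differences of the members were computed under 9 other settings. Of the 360 values, 324 moved by less than 1 SD of repeat spots on the ratio or difference, none that had passed 2-fold changed sign, and 8 others turned sign. Scaling to the array median turned Bcl2l2 (−0.25), Birc2 (−0.24) in WT and Bcl2l2 (−0.13), Mcl1 (−0.06) and Xiap (−0.13) in p53-/- MEFs, and the mean of the probes turned Bcl2l2 to −0.11 in WT, −0.52 in p53-/- MEFs and 0.41 for the difference. Median scaling gave 1321 genes at least 2-fold higher and 2797 lower in WT, against 1935 and 1831 as reported, and 956 and 2104 in p53-/- MEFs, against 1569 and 1170.

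In WT MEFs the members at least 2-fold higher went from 0 to 1 with the mean of probes and with a 1.5-fold threshold, and those lower from 1 to 2 with median scaling and at 1.5-fold. In p53-/- MEFs those higher went from 1 to 0 with median scaling and at 3-fold, and to 3 at 1.5-fold. Without drug, those higher in p53-/- MEFs went from 0 to 1 (Birc5) with the percentile over detected probes, quantile normalization, the mean of probes and 1.5-fold. With drug, those lower in p53-/- MEFs went from 1 to 0 at 3-fold. The members whose ratios differed between genotypes went from 2 to 4 at 1.5-fold. That count went to 3, with Bcl2 added, under median scaling, the percentile over detected probes and quantile normalization. The shares of all genes at 1.5-fold and 3-fold are not given here. The member counts at these thresholds therefore cannot be read as high or low.

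No paired analysis was possible because each condition has 1 array, so leaving out a replicate was not possible either, and the slide could not be a block since there was 1 slide. Signals near the negative controls limit the Birc3 values and the dim Bcl2l1, Bcl2l2 and Birc5 probes. Among the pathway genes they limit the Bcl2l11, Xaf1 and Traf1 ratios.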
